A study of Mus musculus with 4 samples.

Results

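Imprinted genes are transcribed mainly from the copy inherited from 1 parent. The list examined here holds 40 of them, known from the mouse literature to be expressed from the paternal or the maternal chromosome, and 39 matched an entry by gene symbol among the 43346 gene entries of the tables. Peg13 was not analysed here. The list was drawn up with results from these same libraries known, so the levels of its members are a description and carry no test. Expression was measured by RNA-seq in the mandibular, maxillary, medial nasal and lateral nasal processes of the face of wild-type e11.5 mouse embryos, with 1 library of freshly dissected tissue of mixed cell types for each of these 4 outgrowths. Total counts were 13680338 in the mandibular, 15385151 in the maxillary, 13216199 in the medial nasal and 16163913 in the lateral nasal library. Title and tissue words name the medial nasal sample, although the tissue label adds the abbreviation of the lateral nasal process. Neither the strain nor how many embryos went into a library is given in the sources used here. With a single library for each process there is no spread between embryos, and every interval below is a 95% interval for counting error alone.

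Imprinted genes lie in clusters, and within a cluster a differentially methylated imprinting control region sets which parental copy of each gene is active. Neighbours are therefore often expressed from opposite chromosomes, and long noncoding RNAs of a cluster can silence protein-coding neighbours on the same chromosome. Many paternally expressed genes promote fetal growth and several maternally expressed genes restrain it. The tables hold counts per gene without regard to the parental copy, so parental expression is taken from the literature and was not measured.

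Levels are in CPM (counts in 1000000), after libraries were scaled by TMM, the trimmed mean of M values. Of the 39 members, 35 reached 5 CPM in at least 1 library, and 4 did not. Higher in a process here means a level of at least 5 CPM that is 2-fold or more over every other library. By this rule 15 of 35 members were called higher in the mandibular process, where 0.951% of all genes at 5 CPM were called. They came from 8 of 16 clusters and from 5 of 9 chromosomes. The highest CPM of a member was in the mandibular library for 30 of 35 members, and in a nasal library for 5, the medial nasal for 3 and the lateral nasal for 2, where 25.9%, 22.0% and 24.6% of all genes had theirs. No member peaked in the maxillary library, against 27.5% of all genes. For 27 of the 30 members highest in the mandibular process, the interval of the fold over the next library lay above 1. With many counts this holds for small folds too, as for Grb10 at 1.059 (1.041 to 1.076). The share of all genes with such an interval was not taken. In bulk tissue a higher share of cells that express a gene and more RNA of that gene per cell cannot be told apart.

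No member was called higher in the maxillary, medial nasal or lateral nasal process, where the share of all genes called was 0.234%, 1.17% and 0.226%. Members called lower than in each of the other 3 libraries numbered 0 in the mandibular, 0 in the maxillary and 0 in the medial nasal process, against 0.359%, 0.108% and 0.163% of all genes. In the lateral nasal process 1 member, Zim1, was called lower, against 0.189% of all genes. Together the 39 members held 2.07% of the mandibular counts (interval 2.06 to 2.07%, exact binomial), 1.03% of the maxillary, 1.02% of the medial nasal and 0.928% of the lateral nasal counts.

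**Figure D1:**
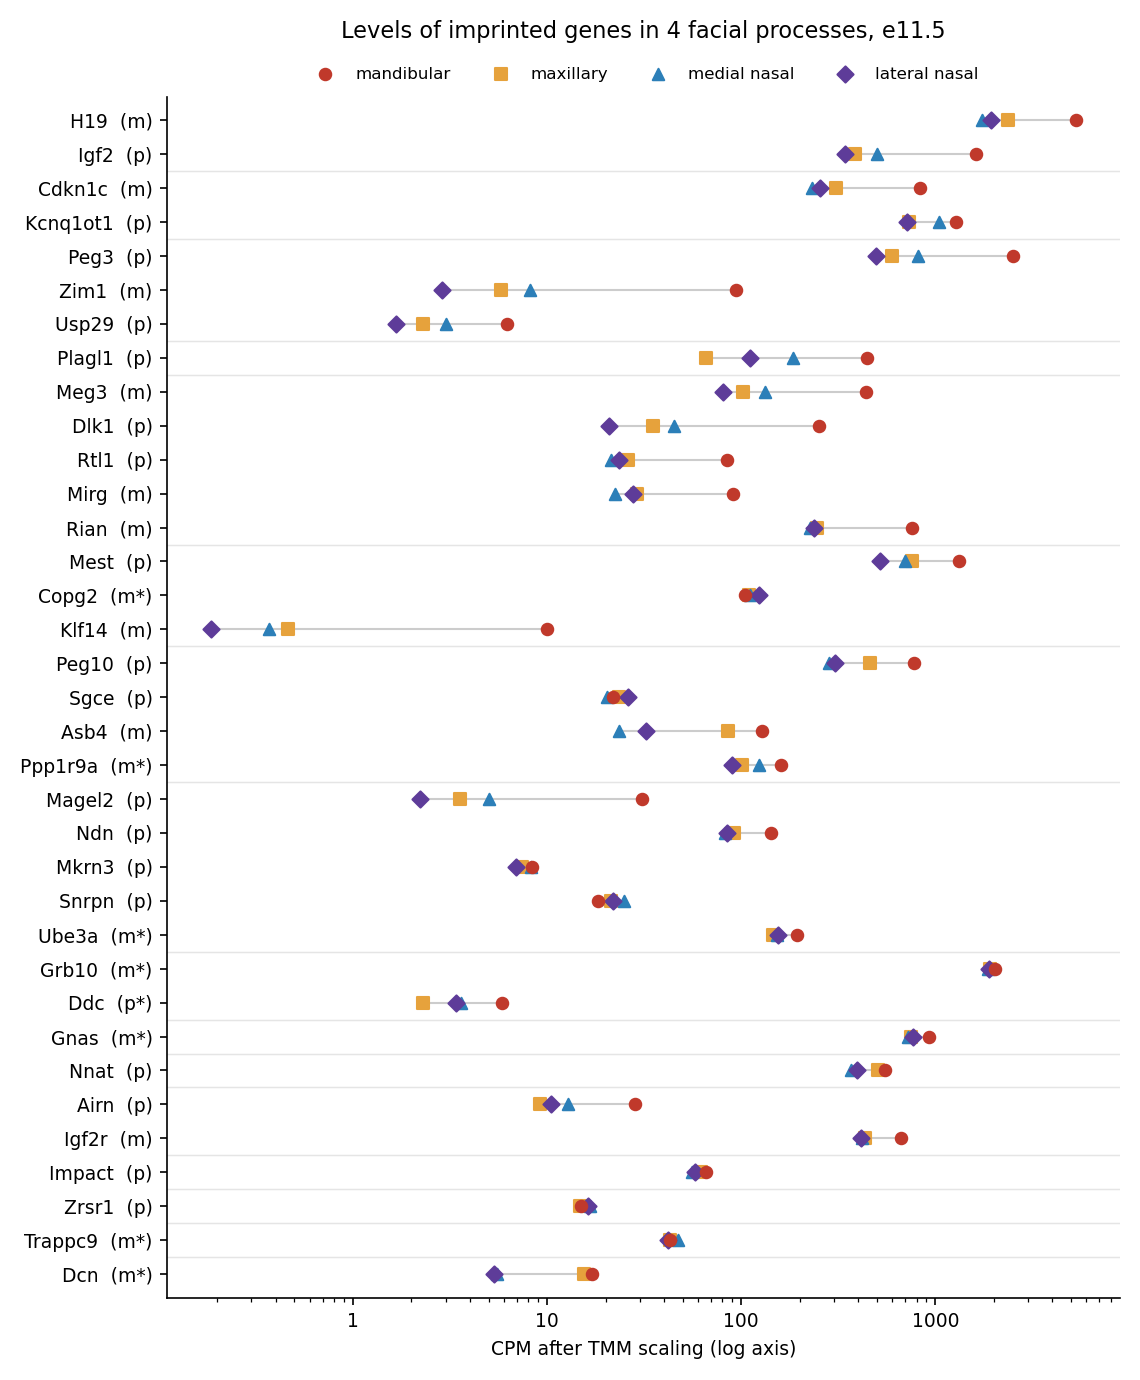
CPM (log axis) of the 35 imprinted genes that reached 5 CPM, with 1 point per library, grouped by cluster with thin lines between clusters. Letters give the parental copy known to be expressed (p paternal, m maternal, with an asterisk where this is known for some tissues only). The mandibular point lies furthest right for 30 genes, while Grb10, between 1862 and 2018 CPM, shows points that nearly coincide.

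The H19/Igf2 cluster on the distal part of chromosome 7 pairs a growth factor with a noncoding RNA. Igf2 encodes insulin-like growth factor 2, a major growth factor of the fetus, and is expressed from the paternal copy. It reached 1616 CPM in the mandibular, 387 CPM in the maxillary, 503 CPM in the medial nasal and 343 CPM in the lateral nasal process, 3.22-fold above the next library (interval 3.13 to 3.30). H19 is a maternally expressed noncoding RNA that gives rise to a microRNA, and lies at chr7:142575529-142578143 on the minus strand of GRCm38. Its level was 5331 CPM in the mandibular, 2365 CPM in the maxillary, 1734 CPM in the medial nasal and 1942 CPM in the lateral nasal process, 2.25-fold above the next library (2.23 to 2.28). Both genes, although expressed from opposite chromosomes, were highest in the same library. Per transcript length, H19 stood at 2439 TPM, the length-corrected transcript abundance, and Igf2 at 600 TPM in the mandibular library.

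A receptor of this growth factor, Igf2r, and a modifier of its signal, Grb10, varied less. Igf2r, the maternally expressed receptor that carries IGF2 to the lysosome, stood at 667 CPM in the mandibular process and at 432, 417 and 415 CPM in the maxillary, medial nasal and lateral nasal processes. Its fold over the next library was 1.55 (1.497 to 1.60). Grb10, an adaptor that dampens insulin and IGF receptor signalling, differed little, at 2018 CPM in the mandibular, 1906 CPM in the maxillary, 1862 CPM in the medial nasal and 1895 CPM in the lateral nasal one. The entry for Grb10 pools transcripts of different promoters and of different parental expression. The ratio of Igf2 to Igf2r counts was 2.42 in the mandibular library, against 0.898, 1.204 and 0.828 in the maxillary, medial nasal and lateral nasal libraries.

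Airn, the paternally expressed antisense RNA that overlaps Igf2r on chromosome 17 and silences it on the same chromosome, was also called higher in the mandibular process. It had 28.3 CPM there, against 9.22 CPM in the maxillary, 12.9 CPM in the medial nasal and 10.5 CPM in the lateral nasal process, a fold of 2.20 over the next library (1.83 to 2.65). The library kit keeps strand, but whether strand was used in the counting is not stated, so reads of Airn and of Igf2r precursor RNA may be mixed.

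The Kcnq1ot1 cluster lies next to H19/Igf2 on chromosome 7. Cdkn1c, the maternally expressed cyclin-dependent kinase inhibitor p57 and a restraint on growth, reached 829 CPM in the mandibular, 309 CPM in the maxillary, 231 CPM in the medial nasal and 254 CPM in the lateral nasal process. This was 2.68-fold above the next library (2.59 to 2.77). Kcnq1ot1, the paternally expressed noncoding RNA that silences Cdkn1c on the same chromosome, had 1273 CPM in the mandibular, 735 CPM in the maxillary, 1040 CPM in the medial nasal and 714 CPM in the lateral nasal one. The medial nasal library thus came second for Kcnq1ot1 and last for Cdkn1c. Kcnq1, the channel gene that Kcnq1ot1 runs through in antisense, had 5 to 10 counts. The other 2 members of the cluster, the growth restraint gene Phlda2 and the transporter gene Slc22a18, had 3 to 9 and 6 to 17 counts per library.

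The Peg3 cluster on the proximal part of chromosome 7 showed a mandibular excess in each of its 3 members. Peg3, a paternally expressed zinc finger gene at chr7:6703892-6730431 on the minus strand, had 2524 CPM in the mandibular, 599 CPM in the maxillary, 811 CPM in the medial nasal and 497 CPM in the lateral nasal process. Its fold over the next library was 3.11 (3.05 to 3.18). Zim1, a maternally expressed zinc finger gene at chr7:6671269-6696450, had 93.6 CPM in the mandibular process, against 5.80 CPM in the maxillary, 8.13 CPM in the medial nasal and 2.89 CPM in the lateral nasal one. The mandibular level was 11.51-fold above the next library (9.47 to 14.1) and 32.4-fold above the lowest. Usp29, a paternally expressed gene of the ubiquitin protease family, starts beside Peg3 and runs the other way. It was low in each library, with 6.24 CPM in the mandibular, 2.30 CPM in the maxillary, 3.03 CPM in the medial nasal and 1.66 CPM in the lateral nasal process.

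Promoter windows of 300 bases, most of them before the transcription start, were taken from RefSeq on GRCm38.p6 for 30 members (47 windows). They are shown for 5 genes of 3 clusters that shared the mandibular excess. Capitals mark matches on either strand to short motifs. These were TGCCGC, bound in its methylated form by the imprint maintenance protein ZFP57, GGGGCCCC, a core recognised by PLAGL1, CATCTG, an E-box of HAND and TWIST proteins, TAATTA, a homeodomain site, and CCATNTT, a core of YY1. A match is a description of letters and not a bound site, and no 2 of these matches overlap in the windows shown. The windows are Peg3 (chr7:6730370-6730669, minus strand), Zim1 (chr7:6696383-6696682, minus strand), Plagl1 (chr10:13090582-13090881, plus strand), Dlk1 (chr12:109452573-109452872, plus strand) and Meg3 (chr12:109540746-109541045, plus strand).
Peg3: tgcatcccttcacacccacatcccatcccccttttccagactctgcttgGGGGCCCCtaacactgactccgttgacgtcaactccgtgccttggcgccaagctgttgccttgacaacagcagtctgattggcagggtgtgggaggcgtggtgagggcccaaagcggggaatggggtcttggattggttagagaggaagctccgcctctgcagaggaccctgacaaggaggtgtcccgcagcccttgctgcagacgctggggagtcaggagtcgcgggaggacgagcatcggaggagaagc
Zim1: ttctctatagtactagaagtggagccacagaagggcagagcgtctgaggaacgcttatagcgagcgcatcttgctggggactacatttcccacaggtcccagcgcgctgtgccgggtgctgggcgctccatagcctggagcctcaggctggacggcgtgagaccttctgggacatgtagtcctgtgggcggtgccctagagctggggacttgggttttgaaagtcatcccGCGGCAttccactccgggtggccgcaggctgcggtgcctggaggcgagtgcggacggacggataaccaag
Plagl1: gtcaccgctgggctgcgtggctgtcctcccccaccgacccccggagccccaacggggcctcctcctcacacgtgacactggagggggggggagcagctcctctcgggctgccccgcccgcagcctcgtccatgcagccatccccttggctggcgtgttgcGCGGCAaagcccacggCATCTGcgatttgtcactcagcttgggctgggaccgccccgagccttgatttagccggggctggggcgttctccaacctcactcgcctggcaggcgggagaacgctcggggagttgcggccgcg
Dlk1: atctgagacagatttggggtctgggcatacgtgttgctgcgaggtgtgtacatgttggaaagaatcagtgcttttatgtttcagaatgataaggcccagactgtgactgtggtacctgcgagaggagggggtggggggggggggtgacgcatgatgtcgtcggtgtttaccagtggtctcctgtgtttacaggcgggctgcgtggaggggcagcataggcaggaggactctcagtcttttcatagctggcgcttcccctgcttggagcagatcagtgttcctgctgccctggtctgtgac
Meg3: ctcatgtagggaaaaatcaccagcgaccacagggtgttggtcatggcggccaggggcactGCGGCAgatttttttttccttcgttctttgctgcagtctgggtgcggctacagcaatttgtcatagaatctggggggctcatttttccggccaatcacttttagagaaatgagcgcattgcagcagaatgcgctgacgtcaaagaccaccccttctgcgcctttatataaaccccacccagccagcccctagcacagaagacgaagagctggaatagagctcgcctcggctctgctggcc

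The Peg3 window has 1 match to GGGGCCCC, at positions 50 to 57, and shares 263 bases with the window of Usp29, so both windows hold the same letters. This motif occurred in 6.38% of the 47 member windows (3 windows, 2 of them that shared site) and in 1.08% of the 32851 windows of all genes. TGCCGC occurred in 23.4% of the member windows and in 11.6% of all windows, and stands in the Zim1, Plagl1 and Meg3 windows as its reverse complement. The member share counts both Mest windows that start at 30737800 and 30737803 and overlap almost wholly. TGCCGC holds a CpG pair, and member windows had a median of 11 such pairs, against 7 over all windows. The part of CpG content in the higher share was not tested. CATCTG was present in 12.8% of member windows and 17.2% of all windows, TAATTA in 4.26% and 5.29%, and CCATNTT in 12.8% and 16.1%. Of the 15 members called higher in the mandibular process, 11 had 15 windows, of which 2 held GGGGCCCC, 4 TGCCGC, 2 CATCTG, 1 TAATTA and 2 CCATNTT. The Dlk1 window had none of these matches. The Plagl1 window had 26 CpG pairs, the Zim1 window 20, the Peg3 and Meg3 windows 13 each and the Dlk1 window 9, against a median of 7 over all windows.

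Plagl1, also called Zac1, encodes a paternally expressed zinc finger transcription factor known to act on other imprinted genes. Its level was 447 CPM in the mandibular, 65.7 CPM in the maxillary, 185 CPM in the medial nasal and 110.5 CPM in the lateral nasal process, a fold of 2.42 over the next library (2.31 to 2.53). The 3 libraries below the mandibular one were themselves spread over 2.82-fold, and the maxillary level was 0.355 times the medial nasal level (0.330 to 0.382). Plagl1 was thus lowest in the maxillary process, the other outgrowth of the first pharyngeal arch.

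In the Dlk1/Meg3 cluster on chromosome 12, 5 of 5 members at 5 CPM were called higher in the mandibular process. Dlk1, a paternally expressed transmembrane protein with EGF repeats that restrains adipocyte differentiation, had 253 CPM in the mandibular, 35.1 CPM in the maxillary, 45.0 CPM in the medial nasal and 20.8 CPM in the lateral nasal process. This was 5.62-fold above the next library (5.15 to 6.14). Rtl1, a paternally expressed gene derived from a retrotransposon and needed in the placenta, had 84.3 CPM in the mandibular, 26.1 CPM in the maxillary, 21.3 CPM in the medial nasal and 23.5 CPM in the lateral nasal one.

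The 3 maternally expressed noncoding RNAs of the cluster were higher in the same library. They lie one after another on the plus strand, and counts per gene cannot tell separate transcripts from 1 longer transcript. Their folds may therefore not be independent. Meg3 had 438 CPM in the mandibular, 102 CPM in the maxillary, 133 CPM in the medial nasal and 80.9 CPM in the lateral nasal process, 3.30-fold above the next library (3.13 to 3.49). Rian, a host of small nucleolar RNAs, had 755 CPM in the mandibular, 246 CPM in the maxillary, 226 CPM in the medial nasal and 238 CPM in the lateral nasal process. Mirg, a host of microRNAs, had 90.6 CPM in the mandibular, 29.1 CPM in the maxillary, 22.3 CPM in the medial nasal and 27.6 CPM in the lateral nasal process. Folds over the next library were close to each other for Rian (3.07), Mirg (3.11) and Rtl1 (3.22). These 3 genes were lowest in the medial nasal process, whereas Dlk1 and Meg3 were lowest in the lateral nasal process. Dio3, which inactivates thyroid hormone, stayed below 5 CPM with 32 counts in the mandibular and 3, 5 and 7 counts in the maxillary, medial nasal and lateral nasal libraries.

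**Figure D2:**
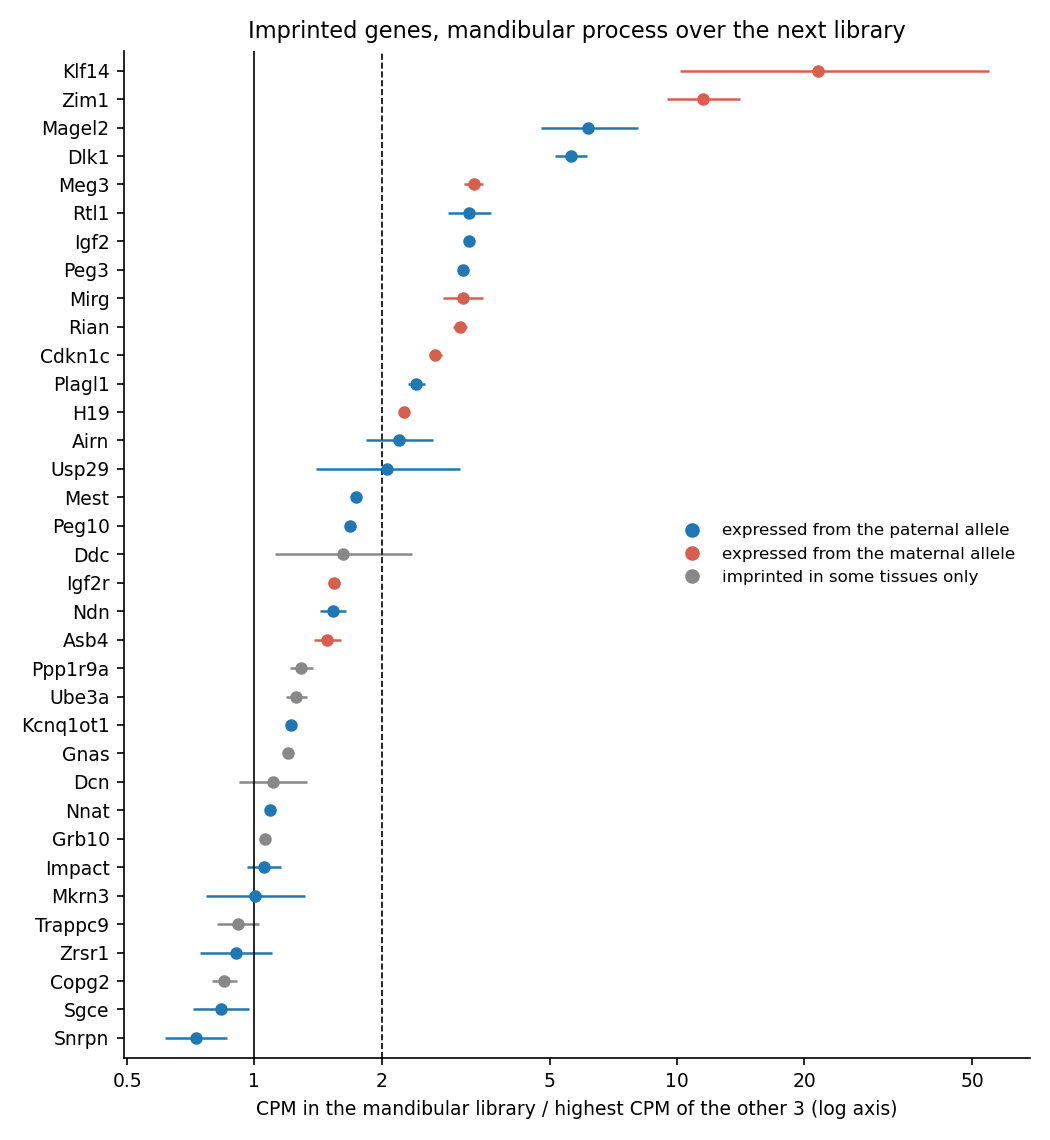
Mandibular CPM divided by the highest CPM of the other 3 libraries (log axis) for 35 imprinted genes, coloured by the parental copy known to be expressed. Bars are 95% intervals for counting error, the solid line marks 1 and the dashed line the 2-fold threshold. The 15 genes at or beyond the dashed line run from Usp29 at 2.06 to Klf14 at 21.6, and include both colours of parental expression.

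Of the paternally expressed members at 5 CPM 8 of 18, and of the maternally expressed members 7 of 9, were called higher in the mandibular process, against 0.951% of all genes. Among members whose listed parental expression is known for some tissues only, 0 of 8 were called. Of this group, Ddc is listed as paternally expressed. The others (Copg2, Ppp1r9a, Ube3a, Grb10, Gnas, Dcn and Trappc9) are listed as maternally expressed, so the maternal share called depends on this grouping. The maternal calls also include Meg3, Rian and Mirg of the same cluster, which may not be independent. The median of log2(CPM + 0.5) in the mandibular process minus the mean of the other 3 libraries was 1.18 over 19 paternally expressed members, 1.66 over 10 maternally expressed members and 0.33 over 8 of the tissue-limited members, those at 1 CPM or more in a library. Over all 37 members at that level it was 1.09, against 0.00 over 16146 genes. The same median was -0.24 in the maxillary, -0.21 in the medial nasal and -0.49 in the lateral nasal process. Because the mean of the others includes the mandibular library in these 3 cases, the values were 0.021 in the maxillary and 0.10 in the medial nasal process without the mandibular library, and -0.076 in the lateral nasal process.

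**Figure D3:**
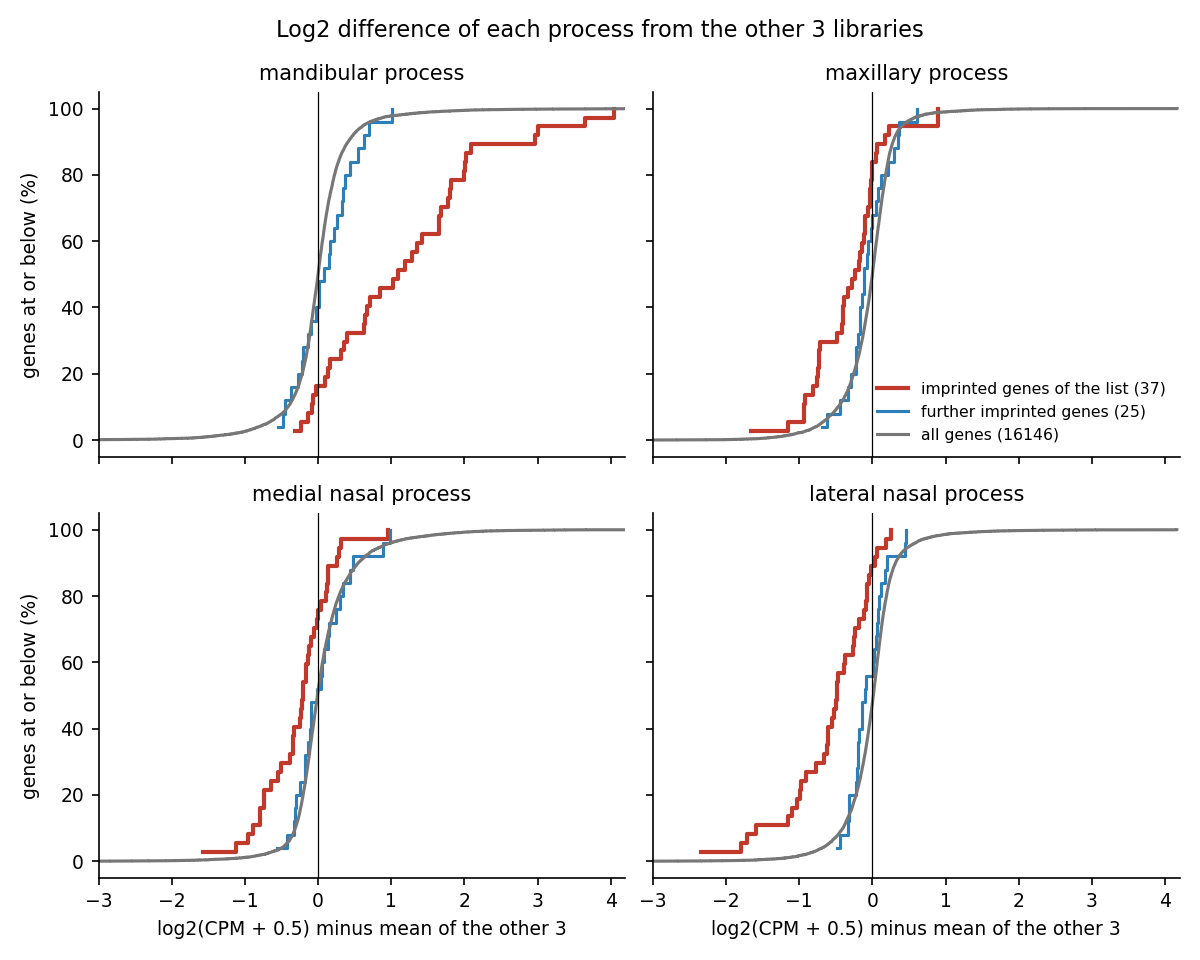
Cumulative share of genes (%) against log2(CPM + 0.5) in a process minus the mean of the other 3 libraries, for 37 imprinted genes of the list, 25 further imprinted genes and 16146 genes at 1 CPM or more. Values of all genes beyond the axis are not drawn. In the mandibular panel the curve of the list lies to the right with a median of 1.09, while that of the further imprinted genes has a median of 0.07.

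The Mest and Peg10/Sgce clusters of chromosome 6 held members that behaved differently from their neighbours. Klf14, an intronless maternally expressed transcription factor gene, had 9.95 CPM in the mandibular process, and 7, 5 and 3 counts in the maxillary, medial nasal and lateral nasal libraries. The mandibular level was 21.6-fold above the next library (10.2 to 54.7). Mest, a paternally expressed gene of mesoderm with a hydrolase fold, was just below the threshold, with 1323 CPM in the mandibular, 762 CPM in the maxillary, 694 CPM in the medial nasal and 519 CPM in the lateral nasal process. Its fold over the next library was 1.74 (1.70 to 1.78). Copg2, a coatomer subunit gene whose 3′ end meets that of Mest, had 104 CPM in the mandibular, 110.1 CPM in the maxillary, 111.5 CPM in the medial nasal and 123 CPM in the lateral nasal one. The ratio of Mest to Copg2 counts was 12.7 in the mandibular, 6.92 in the maxillary, 6.225 in the medial nasal and 4.22 in the lateral nasal library.

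Peg10, a paternally expressed gene derived from a retrotransposon and required for the placenta, had 777 CPM in the mandibular, 460.4 CPM in the maxillary, 285 CPM in the medial nasal and 306 CPM in the lateral nasal process. Sgce, the epsilon-sarcoglycan gene that starts beside Peg10 and is also expressed from the paternal copy, had 21.7 CPM in the mandibular, 23.4 CPM in the maxillary, 20.5 CPM in the medial nasal and 26.0 CPM in the lateral nasal one. The ratio of Peg10 to Sgce counts was 1.81 times as high in the mandibular as in the maxillary library (1.54 to 2.13) and 3.04 times as high as in the lateral nasal library (2.60 to 3.55). Peg3 and Usp29, the other pair that starts head to head, both had their highest level in the mandibular process.

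Asb4, a maternally expressed substrate adaptor for ubiquitin ligases, separated both first arch libraries from both nasal ones. Its first arch levels were 127 CPM (mandibular) and 85.7 CPM (maxillary), against 23.4 CPM in the medial nasal and 32.2 CPM in the lateral nasal process. Dcn, the gene of the collagen-binding proteoglycan decorin, with maternal expression known in the placenta, showed the same split at a lower level. The first arch levels were 17.1 CPM (mandibular) and 15.4 CPM (maxillary), against 5.54 CPM in the medial nasal and 5.35 CPM in the lateral nasal process. Ppp1r9a, encoding the actin-binding protein neurabin, had 160.3 CPM in the mandibular, 100.4 CPM in the maxillary, 124 CPM in the medial nasal and 90.2 CPM in the lateral nasal one. The calcitonin receptor gene Calcr had 10 to 13 counts per library.

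In the Snrpn cluster of chromosome 7, a single gene of 5 was called. Magel2, a paternally expressed MAGE family gene, had 31.0 CPM in the mandibular, 3.56 CPM in the maxillary, 5.03 CPM in the medial nasal and 2.22 CPM in the lateral nasal process, 6.16-fold above the next library (4.76 to 8.08). Ndn, the neighbouring MAGE family gene necdin, had 142 CPM in the mandibular process and 92.2, 82.2 and 84.8 CPM in the maxillary, medial nasal and lateral nasal processes. The ratio of Magel2 to Ndn counts was 5.67 times as high in the mandibular as in the maxillary library (4.22 to 7.74). Adjacent genes of 1 family and of the same parental expression thus differed in how far they varied.

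The other 3 genes of the Snrpn cluster differed between libraries by less than 1.5-fold. Mkrn3, which in humans restrains the onset of puberty, had 112 or 113 counts in each library, or 8.31 CPM in the mandibular, 7.44 CPM in the maxillary, 8.28 CPM in the medial nasal and 6.955 CPM in the lateral nasal process. Snrpn, a core protein gene of the spliceosome, was lowest in the mandibular process, with 18.2 CPM there and 21.4, 24.98 and 21.9 CPM in the maxillary, medial nasal and lateral nasal processes. Its fold, mandibular over medial nasal, was 0.728 (0.615 to 0.861). Snurf, which shares transcripts with Snrpn, had 7 to 21 counts. Ube3a, a ubiquitin ligase gene imprinted in neurons, had 194 CPM in the mandibular process and 146, 153 and 154 CPM in the maxillary, medial nasal and lateral nasal processes.

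The remaining members stand alone or in small clusters. Gnas, whose entry pools the stimulatory G protein subunit with transcripts of other parental expression, had 924 CPM in the mandibular process and 746, 724 and 770 CPM in the maxillary, medial nasal and lateral nasal processes. Nespas, an antisense RNA of the same locus, had 33.5 CPM in the mandibular process and 25.9, 28.3 and 23.3 CPM in the others. Nnat, the proteolipid gene neuronatin, had 549.6 CPM in the mandibular process and 504, 368 and 397 CPM in the maxillary, medial nasal and lateral nasal processes. Ddc, the decarboxylase gene beside Grb10 that is paternally expressed in the heart, had 5.865 CPM in the mandibular process and 2.30, 3.62 and 3.38 CPM in the maxillary, medial nasal and lateral nasal processes. Some members lie inside another gene. Blcap, the host of Nnat, had 41.1 CPM in the mandibular process and 34.4, 32.5 and 31.3 CPM in the maxillary, medial nasal and lateral nasal processes. Commd1, the host of Zrsr1, had 38.0 CPM in the mandibular process and 45.9, 39.0 and 41.5 CPM in the others. The single genes Impact, Zrsr1 and Trappc9 differed between libraries by less than 1.5-fold. Impact, an inhibitor of the GCN2 stress kinase, had 65.9 CPM in the mandibular process and 62.4, 56.0 and 57.5 CPM in the others in the same order. Zrsr1, related to splicing factors, had 14.995 CPM in the mandibular process and 14.75, 16.6 and 16.19 CPM in the others. Trappc9, a subunit of a vesicle trafficking complex, had 42.9 CPM in the mandibular process and 43.2, 47.0 and 42.0 CPM in the others.

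The threshold itself divides neighbouring values. Just inside it stood Usp29 at 2.06, from 84 counts in the mandibular and 41 in the medial nasal library, and Airn at 2.20 (1.83 to 2.65), both with intervals that reach below 2. Just outside stood Mest at 1.74 and Peg10 at 1.69 (1.64 to 1.74). At 1.5-fold, 20 members were called higher in the mandibular process, against 1.72% of all genes, with Mest, Peg10, Ddc, Igf2r and Ndn added.

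Neighbours of opposite parental expression were set against each other within a library, where their ratio needs no scaling. Ratios of counts depend on gene length and are compared between libraries only. The ratio of H19 to Igf2 was 3.30 in the mandibular and 3.45 in the medial nasal library, against 6.10 in the maxillary and 5.65 in the lateral nasal library. The ratio of Meg3 to Dlk1 was 1.73 in the mandibular, 2.90 in the maxillary, 2.95 in the medial nasal and 3.89 in the lateral nasal library. In both pairs the paternally expressed gene was further above the maxillary library than the noncoding RNA, and the ratio of H19 to Igf2 was 0.5405 times that of the maxillary library (0.524 to 0.558).

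The maternally expressed gene was the one further above in the Kcnq1ot1 and Peg3 clusters. The ratio of Cdkn1c to Kcnq1ot1 was 0.651 in the mandibular, 0.421 in the maxillary, 0.222 in the medial nasal and 0.356 in the lateral nasal library. That of Zim1 to Peg3 was 3.70 times as high in the mandibular as in the medial nasal library (3.04 to 4.54). Igf2r to Airn was low in the mandibular library, like H19 to Igf2, at 0.504 times the maxillary ratio (0.411 to 0.615). Rian to Rtl1 was nearly constant, at 8.96 in the mandibular, 9.41 in the maxillary, 10.6 in the medial nasal and 10.1 in the lateral nasal library. Rian, on the plus strand, and Rtl1, on the minus strand, are known to be expressed from opposite chromosomes. Whether strand was used in the counting is not stated, so the Rtl1 entry may also hold reads of RNA from the plus strand.

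**Figure D4:**
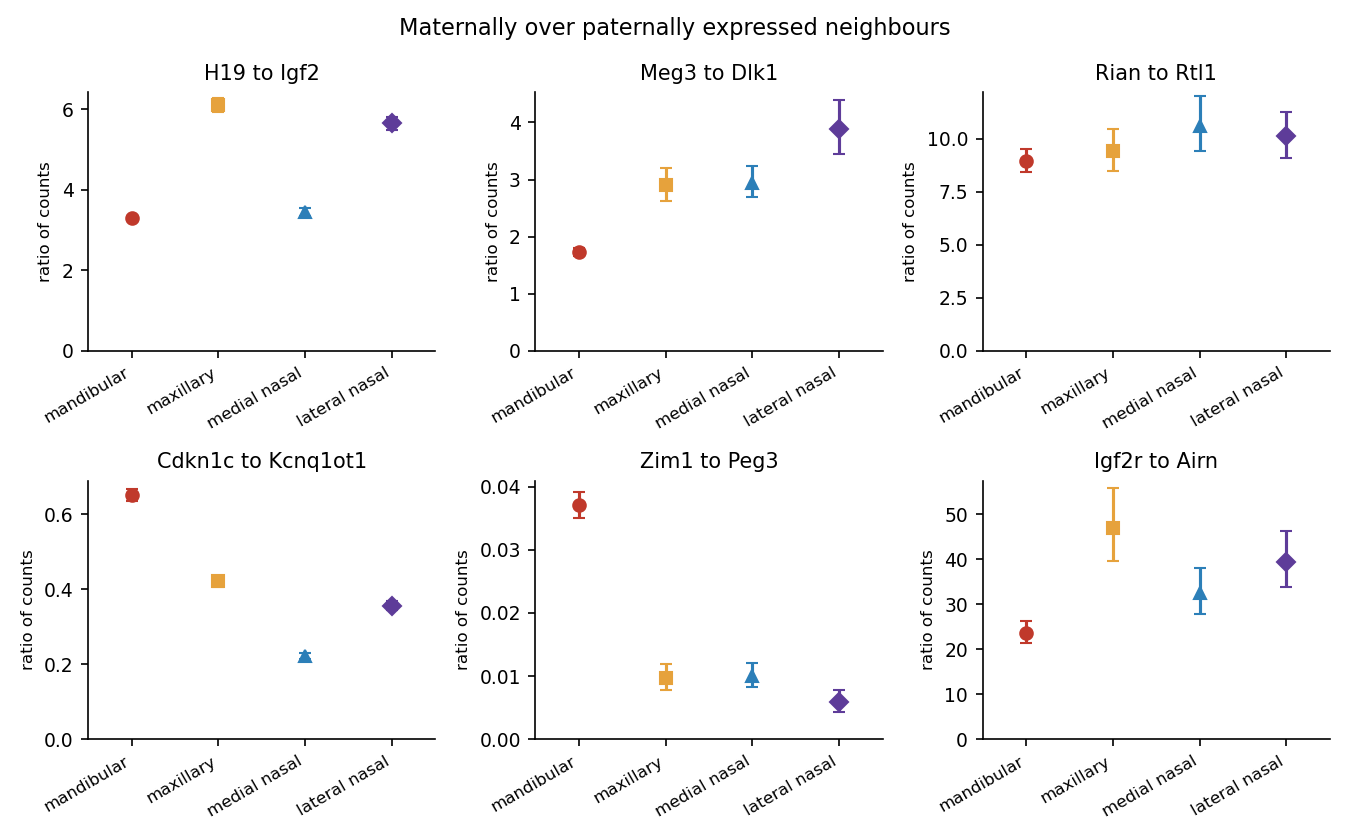
Ratio of counts of a maternally expressed gene to its paternally expressed neighbour in each library (linear axes from 0), with 95% intervals for counting error. The mandibular ratio is the lowest for H19 to Igf2 (3.30), Meg3 to Dlk1, Rian to Rtl1 and Igf2r to Airn, and the highest for Cdkn1c to Kcnq1ot1 (0.651) and Zim1 to Peg3.

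The order of the other 3 libraries varied between members. The medial nasal level was above the maxillary level in 18 of 35 members, and in 9 of the 15 called. The maxillary level was above the lateral nasal level in 26 of 35 members. Of the 15 called, 2 were lowest in the maxillary, 5 in the medial nasal and 8 in the lateral nasal library. No share over all genes was taken for these orders, so the counts describe the members only. Across these 3 libraries 7 of 35 members spanned at least 2-fold, against 7.75% of all genes.

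Genes outside the list were counted in the same way. Protein-coding genes at 5 CPM within 500000 bases of a called member were taken, leaving out the list and the second list of imprinted genes given below. Of these 34 genes, 0 were called higher in the mandibular process, against 0.816% of all protein-coding genes. At that share fewer than 1 call would be made among 34. Of these 34, 12 were highest in the mandibular process, against 2847 of all 11514 protein-coding genes. A second list of 37 imprinted genes, of which 34 had an entry, was chosen with the results known. It gave 0 of 19 genes at 5 CPM called, against 0.951% of all genes, and 9 of the 19 were highest in the mandibular process (47.4%), against 25.9% of all genes. Its median log2 difference was 0.07 over 25 genes. The nearest to the threshold was Zdbf2, a paternally expressed gene, with 168 CPM in the mandibular, 71.7 CPM in the maxillary, 86.9 CPM in the medial nasal and 92.1 CPM in the lateral nasal process. Factors that maintain imprints, among them Dnmt1, Zfp57, Trim28 and Ctcf, gave 0 of 11 called and 6 of 11 highest in the mandibular process (54.5%), against 0.951% and 25.9% of all genes. At the share of all genes called, fewer than 1 call would be made in lists of this size. Zfp57, for example, had 68.3 CPM in the mandibular process and 63.8, 65.3 and 56.6 CPM in the maxillary, medial nasal and lateral nasal processes.

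Rtl1 and Peg10 belong to a family of genes derived from retrotransposon gag genes, of which 2 of 7 at 5 CPM were called higher in the mandibular process, against 0.951% of all genes. One of them is Rtl1 itself. The other was Rtl3, which is not on the list, with 76.4 CPM in the mandibular, 2.11 CPM in the maxillary, 5.17 CPM in the medial nasal and 3.02 CPM in the lateral nasal process. Its fold over the next library was 14.8 (11.6 to 19.1). Rtl5, Rtl6, Rtl8a and Rtl8b were not highest in the mandibular process.

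Markers of skeletal muscle moved with the mandibular library. The summed level of 10 such genes, among them Myod1, Myog and Ttn, was 809 CPM in the mandibular, 272 CPM in the maxillary, 21.5 CPM in the medial nasal and 37.8 CPM in the lateral nasal process. Of the 10, 8 reached 5 CPM, and all 8 were called higher in the mandibular process, against 0.951% of all genes. None of the 10 was at 0 in any library. In the medial nasal library Myod1 had 0.0739 CPM and Myog 0.148 CPM. The muscle sum was 12.6 times as high in the maxillary as in the medial nasal library. Of the 15 called members, 6 (H19, Cdkn1c, Rtl1, Mirg, Rian and Klf14) were also higher in the maxillary than in the medial nasal library, by 1.09-fold (Rian) to 1.36-fold (H19), and 9 were lower there. The interval of this fold includes 1 for Klf14 (0.341 to 4.98) and, among the 9, for Usp29 (0.470 to 1.22) and Magel2 (0.486 to 1.03). The part of muscle cells in the mandibular excess was not tested.

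Other cell type lists differed in other ways. Summed neural markers were 54.3 CPM in the mandibular, 142 CPM in the maxillary, 305 CPM in the medial nasal and 169 CPM in the lateral nasal process, and epithelial markers 133, 152, 249 and 274 CPM in the same order. Endothelial markers were close, with 252 CPM for the mandibular library and 211 to 226 CPM for the others. Facial mesenchyme markers were present in each library, at 1878 CPM in the mandibular, 1974 CPM in the maxillary, 1204 CPM in the medial nasal and 1515 CPM in the lateral nasal process, a sum carried by Prrx1 and Pdgfra. These markers went both ways, with Pdgfra highest in the mandibular process and Msx1 (115 CPM there, 192 to 266 CPM in the others) and Prrx2 (32.6 CPM there, 54.6 to 71.3 CPM in the others) lowest there. Erythroid markers stood at 3262, 4350.1, 2932 and 4640.1 CPM and cartilage and bone markers at 337, 245, 555 and 227 CPM in that order. The cartilage and bone sum was carried mostly by Col2a1, which like Sox9 was highest in the medial nasal process. Runx2 was highest in the maxillary (61.6 CPM) and lowest in the medial nasal process (33.1 CPM), and Acan was highest in the mandibular process. Hand2, which marks the mandibular part of the first arch, stood at 103 CPM in the mandibular library and between 0 and 1.32 CPM in the others. The part of these differences in the members' levels was not tested.

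**Figure D5:**
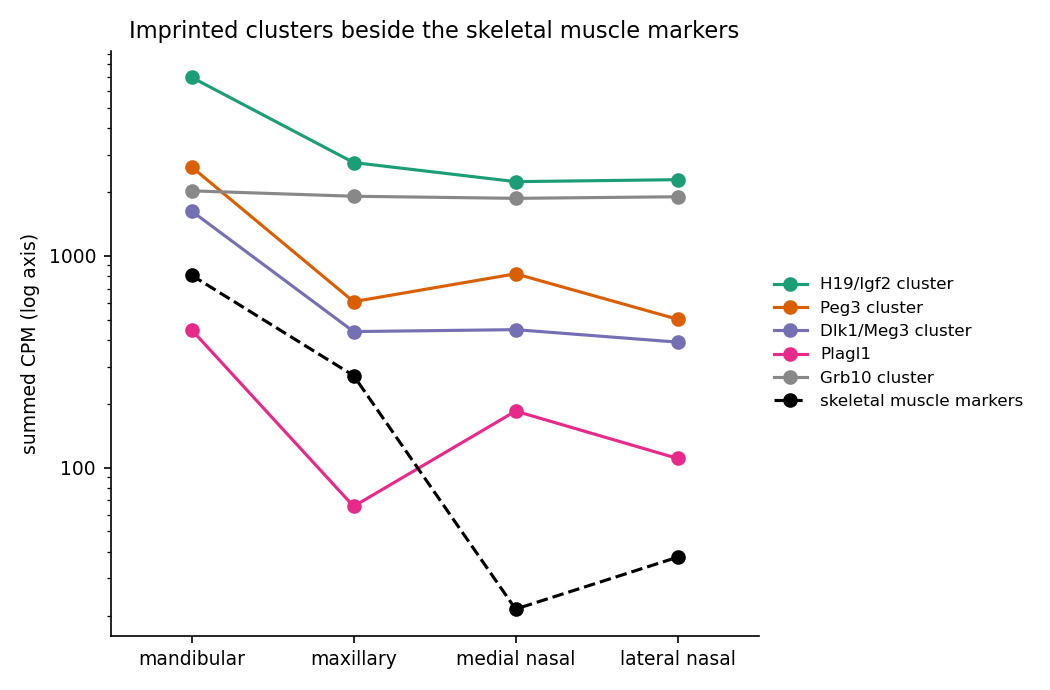
Summed CPM (log axis) of 3 imprinted clusters, Plagl1, the Grb10 cluster and the skeletal muscle markers (dashed) in each library, with lines drawn to guide the eye. All lines but that of the Grb10 cluster stand well above the rest in the mandibular library. The muscle sum and the H19/Igf2 cluster are higher in the maxillary (272 and 2752 CPM) than in the medial nasal library (21.5 and 2236 CPM), while the Peg3 cluster (607 against 822 CPM), Plagl1 (65.7 against 185 CPM) and, slightly, the Dlk1/Meg3 cluster (439 against 448 CPM) are lower there.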

How the data were processed

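RNA-seq libraries of 4 facial processes, 1 per process, were analysed. Libraries were total RNA after removal of ribosomal RNA. The authors aligned reads to mm10 with STAR and estimated counts per gene with RSEM 1.4.1 and GENCODE annotation. The deposited expected counts and posterior mean counts are not normalized, and the deposited TPM values are corrected for length. The authors also deposited a posterior standard deviation for each count. Expected counts were rounded to whole numbers, and symbols were taken from GENCODE on GRCm38 for 42462 of 43346 entries. CPM refer to library totals times TMM factors of edgeR 4.0.16, between 0.985 and 1.02. A gene was called higher or lower in a process at 5 CPM and 2-fold from the nearest of the other 3 libraries, and log2 values were taken after adding 0.5 CPM. A level of 5 CPM corresponds to 67.4 to 81.2 counts. Fold intervals are exact conditional binomial, at 95%. All 35 members at 5 CPM are named with their levels. The members and lists were chosen with earlier results of these data known. Alternatives included median-of-ratios size factors of DESeq2 1.42.0, total counts, protein-coding genes alone, TPM, posterior mean counts, other thresholds and left-out libraries. The calling rule and the fold intervals were tried on counts simulated with counting error only. Such counts hold no spread between embryos.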

Additional observations from a re-analysis of the deposited data

How the results depend on the processing

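With 1 library per process, no value could be checked against a spread between embryos, and intervals cover counting error only. No paired analysis was possible because each process has 1 library and the results come from no test. Members called higher in the mandibular process numbered 13 to 16 under other scalings, units and minimum levels, 20 at 1.5-fold and 10 at 3-fold. No member's expected and posterior mean counts differed by 10% or more. Usp29 was lost with total counts, and Usp29 and Klf14 with TPM and with a minimum of 20 CPM. The count was 15 to 18 without 1 of the other libraries, an alternative chosen after seeing the data. In the medial nasal process 1 member (Slc22a18) was called higher at a minimum of 1 CPM, and in the maxillary process 1 (Plagl1) was called lower at 1.5-fold. Members lower in the lateral nasal process numbered 0 with total counts, TPM, a minimum of 20 CPM and 3-fold, and 2 at 1.5-fold. The median log2 difference in the maxillary process was -0.18 with a pseudocount of 2, a minimum of 5 CPM or no minimum. Over paternally expressed members in the mandibular process it was 1.04 with TPM, 0.94 with a pseudocount of 2 and 1.10 at a minimum of 5 CPM. Without 1 library the median ranged from 0.90 to 1.25 in the mandibular, -0.49 to 0.021 in the maxillary, -0.47 to 0.10 in the medial nasal and -0.69 to -0.076 in the lateral nasal process. In the mandibular process it ranged from 1.07 to 1.25 over paternally expressed, 1.60 to 1.81 over maternally expressed and 0.32 to 0.35 over tissue-limited members. The reversals in the maxillary and medial nasal processes, to 0.021 and 0.10, came from leaving out the mandibular library. The cause of the other shifts was not tested.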
